A study of Mus musculus with 6 samples.

Results

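A set of 10 genes of the MHC class I antigen presentation pathway was followed in germinal centre B cells of mouse spleen, B cells that divide, diversify their antibodies and compete for selection within follicles after antigen. The genes were taken by symbol, and all were found among the 23420 genes of the files, and all 10 passed the filter on low values (a mean of 1 CPM or more over the libraries, CPM being counts scaled to a common library total), as 10133 genes did. The WT group was BASP1 +/+ hCD20TamCre+/- and the KO group BASP1 fl/fl hCD20TamCre+/-, with 3 libraries each. Both groups thus carried the same tamoxifen-activated Cre of B cells, both were immunized with NP-KLH, both received 1 mg of tamoxifen on day 5, day 7 and day 9, and cells were sorted on day 10. The age of the mice is not given in the labels, nor whether each library is 1 mouse. The p-values rest on the spread of the KO minus WT differences in these libraries, drawn toward that of other genes. They need not measure the spread between mice.

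MHC class I molecules show peptides from inside the cell to CD8 T cells and NK cells. Peptides cut by the proteasome are carried into the endoplasmic reticulum by the transporter TAP, trimmed there, and loaded onto a heavy chain paired with beta-2-microglobulin while tapasin edits the fit. Interferon raises the pathway in most cells, and the transactivator NLRC5 acts on an array of motifs in class I promoters.

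Basp1, the deleted gene, checked the labels. Its values were 5.486, 5.895 and 5.525 log2 CPM in WT 1 to 3 and 3.270, 2.861 and 3.231 in KO 1 to 3, so that all KO libraries lay below all WT libraries (49.7 and 8.70 CPM as geometric means). The difference was -2.51 ± 0.45 on the log2 scale (SD, n = 3 pairs; limma adjusted p = 3.3e-16). The summed level of 5 B cell markers was 7878 to 8170 CPM in WT and 7371 to 7645 CPM in KO, and that of 9 germinal centre markers 4360 to 4518 CPM in WT and 4216 to 4370 CPM in KO. T cell markers (8 genes) summed to at most 1.33 CPM. Among them Cd3e and Trat1 had -5.063 log2 CPM in every library, a value called the floor here, although single values of other genes lie lower. NK cell markers (5 genes, Klrd1 at the floor) summed to 1.03 to 1.14 CPM in WT and 1.32 to 1.59 CPM in KO. Most of that sum was Prf1 (geometric means of 0.732 and 1.17 CPM). Klrb1c was lower in KO (0.231 and 0.151 CPM), and Ncr1 and Gzma each had 0.0299 and 0.0541 CPM, with a difference in pair 2 alone. None of these NK markers reached the filter. Macrophage and dendritic cell markers (9 genes) summed to 9.73 to 16.6 CPM without separation of the groups, and 5 neutrophil markers to at most 1.91 CPM. Of the 5 markers of stroma and endothelium Col1a1 and Col3a1 were at the floor, and the sum was 38.3 to 40.4 CPM in WT and 31.7 to 33.5 CPM in KO. Nearly all of that sum was Pecam1 (geometric means of 39.0 and 32.4 CPM), with Cdh5 at 0.0518 and 0.170 CPM and Pdgfrb at 0.0541 and 0.0432 CPM. Plasma cell markers (4 genes) summed to 339 to 375 CPM in WT and 359 to 396 CPM in KO, nearly all of it Xbp1 (geometric means of 357 and 371 CPM). Prdm1, a plasma cell regulator, had 1.16 CPM in WT and 2.20 CPM in KO (0.93 ± 0.56 on the log2 scale, limma adjusted p = 0.256, higher in all pairs), and Sdc1 0.658 and 0.947 CPM, below the filter. The sum of 6 erythroid and platelet markers was at most 2.71 CPM, with Hba-a1 and Hba-a2 at the floor. The 4 tested nuclear and non-coding RNAs, a sign of RNA quality, differed by a median of -0.442, -0.972 and 0.313 on the log2 scale in pairs 1, 2 and 3. The part of these markers in the differences below was not tested.

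The promoters are shown first, because the classical heavy chain genes and B2m are known to share regulatory motifs that the other members hold only in part. RefSeq (GRCm38.p6) gave a promoter for 7 of the 10 members, and none was used for Tap2, Tapbpl and Nlrc5. Printed are the 200 bases before the start site, 5′ to 3′ along the gene, for H2-K1 (second of its 2 listed starts, chr17:34000334-34000533, minus strand), H2-D1 (chr17:35262894-35263093, plus strand), H2-T23 (chr17:36032702-36032901, minus strand), B2m (chr2:122147487-122147686, plus strand) and Tap1 (chr17:34187356-34187555, plus strand). Capitals mark matches on either strand to CCAAT (core of the Y box), TGACG (the cAMP response element core, as in the X2 box), GAAANNGAA or GAANNGAAA (cores of an interferon response element) and GGGGATTCC (core of a kappaB site).
H2-K1: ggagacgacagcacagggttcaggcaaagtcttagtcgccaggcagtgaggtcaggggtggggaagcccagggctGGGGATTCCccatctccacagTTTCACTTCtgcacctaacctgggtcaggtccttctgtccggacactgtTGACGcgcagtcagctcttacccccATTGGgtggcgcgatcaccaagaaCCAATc
H2-D1: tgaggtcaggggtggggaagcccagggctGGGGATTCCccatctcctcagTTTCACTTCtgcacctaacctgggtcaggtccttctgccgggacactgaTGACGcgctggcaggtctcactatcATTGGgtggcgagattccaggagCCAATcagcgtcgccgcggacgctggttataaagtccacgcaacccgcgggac
H2-T23: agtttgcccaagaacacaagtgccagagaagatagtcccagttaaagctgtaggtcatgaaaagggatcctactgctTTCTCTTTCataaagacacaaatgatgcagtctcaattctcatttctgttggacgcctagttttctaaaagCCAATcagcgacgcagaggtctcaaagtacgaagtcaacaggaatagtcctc
B2m: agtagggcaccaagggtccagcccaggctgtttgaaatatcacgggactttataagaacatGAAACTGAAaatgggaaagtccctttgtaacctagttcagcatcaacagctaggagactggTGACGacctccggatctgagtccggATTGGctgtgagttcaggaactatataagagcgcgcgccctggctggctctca
Tap1: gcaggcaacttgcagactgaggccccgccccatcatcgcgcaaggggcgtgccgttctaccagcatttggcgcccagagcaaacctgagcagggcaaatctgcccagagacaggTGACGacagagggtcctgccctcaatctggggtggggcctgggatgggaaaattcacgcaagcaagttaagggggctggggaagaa

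H2-K1 and H2-D1 carried the same motifs in the same order. From the kappaB core to the last Y box core their promoters had 108 identical bases, 15 mismatches and a gap of 1 base (87.1% identity). In windows of 250 bases before to 50 after the start, GGGGATTCC was in 0.25% of the 32851 promoters of the table and, among the members, in H2-K1 and H2-D1. Other forms of a kappaB site were not searched, so a promoter without this match may still hold such a site. CCAAT was in 37.4% of all promoters and in 6 of the 7 member genes (all but Erap1; the match of Tap1 lies before the printed stretch), and TGACG in 20.8% and in 4 (H2-K1, H2-D1, B2m and Tap1). GAAANNGAA was in 8.56% and in 3 (B2m, H2-T23 and Erap1, where 2 matches overlap). GAANNGAAA, a related form whose 2 GAA units lie 1 base closer together, was in 7.52% and in H2-K1 and H2-D1. It was searched after the sequences had been seen. The 2 forms can overlap, and no member held both. A match describes letters and does not show that a factor binds.

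**Figure D1:**
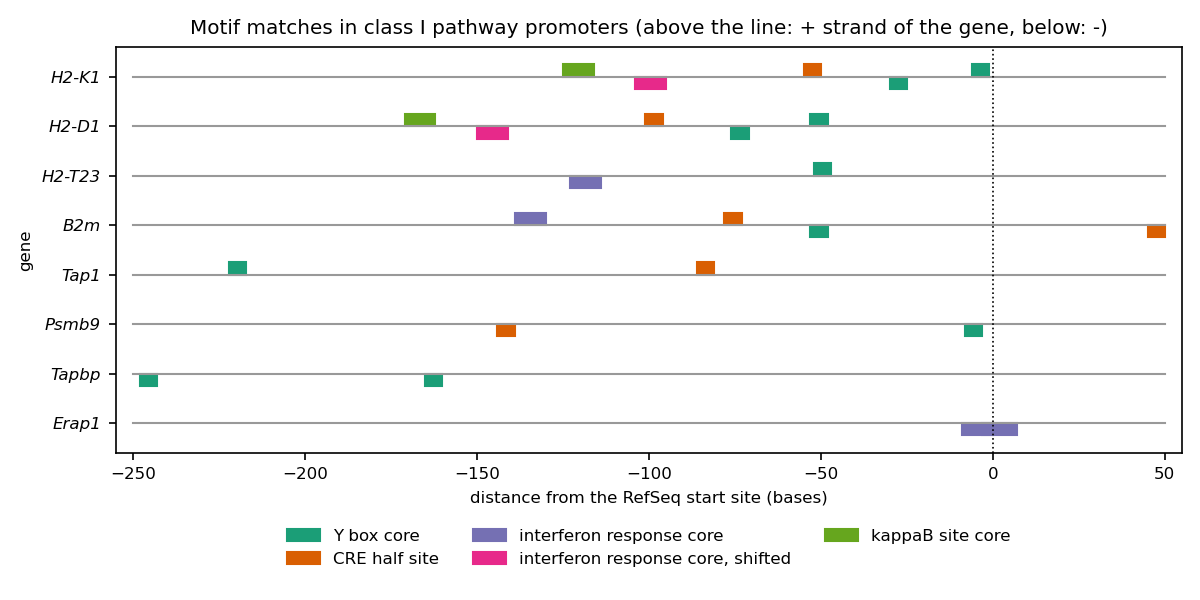
Motif matches (coloured blocks) in the RefSeq promoters of 7 members and of Psmb9, by distance from the start site in bases; blocks above a line lie on the gene's plus strand and blocks below it on the minus strand. H2-K1 (second start) and H2-D1 show the same order of 5 blocks at different distances from the start.

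In the comparison of KO with WT, which asks which transcripts differ when Basp1 is deleted, none of the 10 class I genes passed 5% FDR (limma, adjusted over all 10133 genes). The background was 27 genes called, or 0.266% of those tested. Of the members 9 of 10 had a higher mean in KO, against 51.3% of all tested genes, and their median difference was 0.086 on the log2 scale (0.00367 over all tested genes). In 6 of 10 (H2-K1, Tap1, Tap2, Tapbp, Nlrc5 and Erap1) every KO library lay above every WT library, which held for 15.2% of all tested genes, and in 0 of 10 the reverse, which held for 12.5%. Since the deposited WT and KO values of a gene have the same sum in every pair, such separation only restates that all 3 paired differences have 1 sign, here and for each gene below. At an unadjusted p under 0.05 there were 2 higher members (Nlrc5 and Tapbp; background 4.16%) and 0 lower ones (background 4.66%). The members' median was 0.070 in pair 1, 0.133 in pair 2 and 0.063 in pair 3, with 9, 8 and 7 of 10 higher in KO. In these bulk libraries a change in the share of cells of a type and a change in RNA per cell cannot be told apart.

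**Figure D2:**
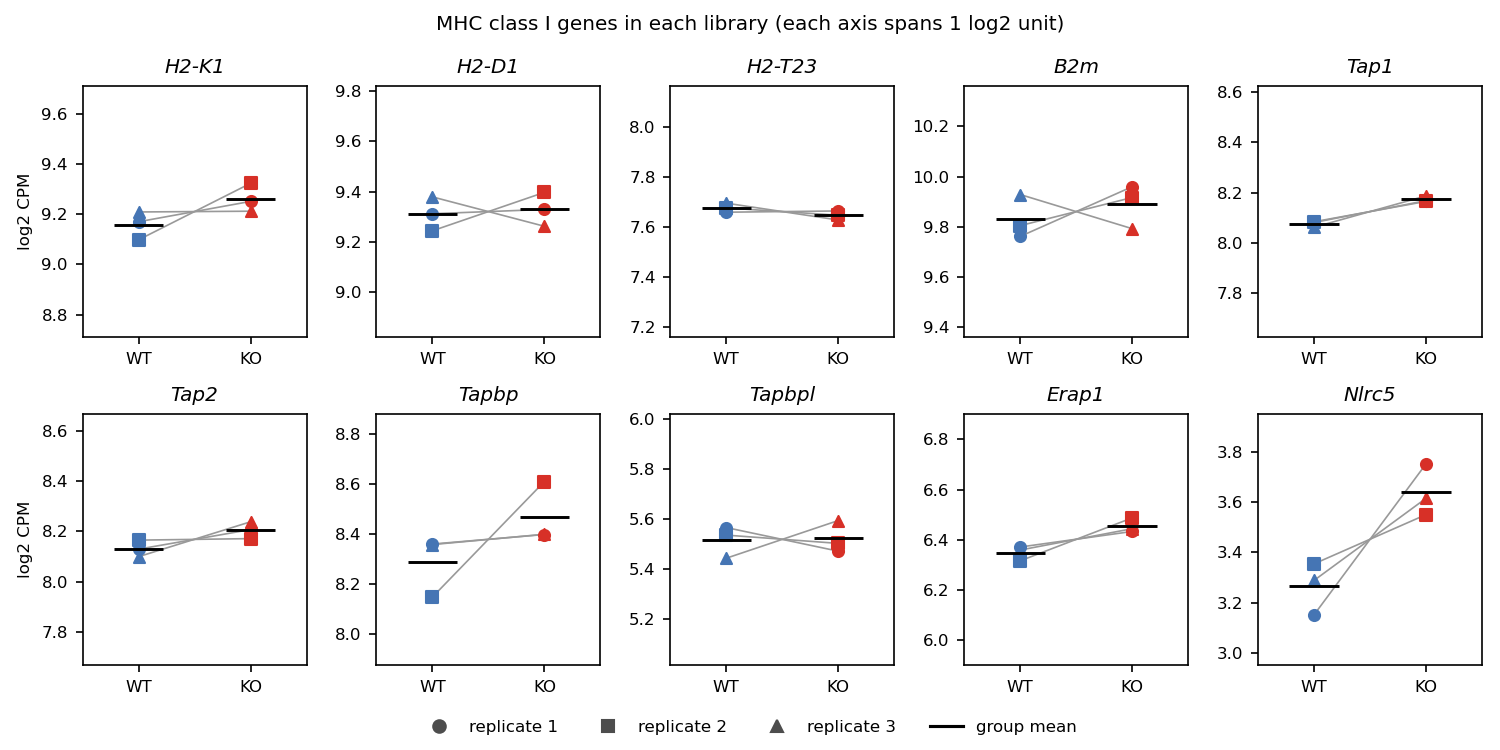
Log2 CPM of the 10 genes in every library, with same-numbered WT and KO libraries joined by grey lines and the group means as black bars; each axis spans 1 log2 unit. Nlrc5 and Tapbp show the widest steps (0.37 and 0.18), and for Tapbp the step comes mainly from replicate 2 (0.460).

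The heavy chain genes H2-K1 and H2-D1 encode the classical class I molecules that present peptides to CD8 T cells. H2-K1 (chromosome 17, 33996017 to 34000347, GENCODE M21 on GRCm38) had 9.170, 9.098 and 9.209 log2 CPM in WT 1 to 3 and 9.251, 9.323 and 9.212 in KO 1 to 3. The groups did not overlap, but KO 3 lay only 0.003 above WT 3. The difference was 0.10 ± 0.11 (SD, n = 3 pairs; limma adjusted p = 0.719), or 7.40% in geometric mean CPM. Without replicate 2 it was 0.042.

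H2-D1 (chromosome 17, 35262730 to 35267499) had 9.312, 9.244 and 9.379 in WT and 9.329, 9.397 and 9.262 log2 CPM in KO. The groups overlapped, since WT 3 was second to KO 2 alone and KO 3 was below WT 1. The difference was 0.02 ± 0.14 (SD, n = 3 pairs; limma adjusted p = 0.973; 95% interval -0.11 to 0.15). The difference between the H2-K1 and H2-D1 values was not tested.

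H2-T23 (chromosome 17, 36029773 to 36032855) encodes Qa-1, a non-classical molecule that presents leader peptides of other class I chains to the NK receptor CD94/NKG2. It was the 1 member with a lower mean in KO: 7.659, 7.676 and 7.695 log2 CPM in WT against 7.664, 7.647 and 7.628 in KO, a difference of -0.03 ± 0.04 (SD, n = 3 pairs; limma adjusted p = 0.953; 95% interval -0.18 to 0.12). The deposited values of all 6 libraries lay within 0.067 of each other, and KO 1 lay above WT 1. Since the pair sums are equal, that range reflects only the paired differences.

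B2m (chromosome 2, 122147686 to 122153083), the light chain shared by all class I molecules, had 9.762, 9.805 and 9.929 log2 CPM in WT and 9.960, 9.917 and 9.793 in KO. The groups overlapped, with pairs 1 and 2 higher in KO and pair 3 lower by 0.136. The difference was 0.06 ± 0.17 (SD, n = 3 pairs; limma adjusted p = 0.869).

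Tap1 and Tap2 encode the subunits of the peptide transporter. Tap1 (chromosome 17, 34187553 to 34197225) was the steadiest of the members over the pairs, at 8.081, 8.084 and 8.062 log2 CPM in WT and 8.168, 8.165 and 8.187 in KO. Every KO library lay at least 0.081 above every WT library, and the difference was 0.10 ± 0.02 (SD, n = 3 pairs; limma adjusted p = 0.774; 95% interval -0.04 to 0.24). In limma the spread of a gene is drawn toward that of genes of like level, and the median SD over the pairs was 0.112 above 64 CPM.

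Tap2 (chromosome 17, 34203527 to 34216321) had 8.129, 8.165 and 8.099 log2 CPM in WT and 8.207, 8.171 and 8.238 in KO. The groups did not overlap, with a gap of 0.006 between WT 2 and KO 2. The difference was 0.07 ± 0.07 (SD, n = 3 pairs; limma adjusted p = 0.837), and 0.042 without replicate 3.

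Tapbp (chromosome 17, 33915899 to 33929292) encodes tapasin, which bridges the transporter and the empty heavy chain. Its values were 8.360, 8.149 and 8.358 log2 CPM in WT and 8.398, 8.609 and 8.399 in KO. The groups did not overlap, yet pairs 1 and 3 differed by 0.038 and 0.041 and pair 2 by 0.460, so 1 pair made most of the mean of 0.18 ± 0.24 (SD, n = 3 pairs; limma adjusted p = 0.409). Without replicate 2 the mean was 0.04 (limma adjusted p = 1.00). Pair 2 was also the pair with the lowest median of nuclear and non-coding RNAs given above, and a link between them was not tested.

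Tapbpl (chromosome 6, 125223933 to 125231860) encodes TAPBPR, a second peptide editor related to tapasin. At 5.566, 5.536 and 5.444 log2 CPM in WT and 5.472, 5.503 and 5.594 in KO its groups overlapped, and the difference was 0.01 ± 0.13 (SD, n = 3 pairs; limma adjusted p = 0.993; 95% interval -0.18 to 0.19). The highest library was KO 3 and the lowest WT 3.

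Erap1 (chromosome 13, 74639568 to 74693201), the aminopeptidase that trims peptides in the endoplasmic reticulum, had 6.371, 6.316 and 6.359 log2 CPM in WT and 6.433, 6.487 and 6.444 in KO. All KO libraries lay above all WT libraries, by at least 0.062, and the difference was 0.11 ± 0.06 (SD, n = 3 pairs; limma adjusted p = 0.801). Its exons overlap those of Cast on the other strand by 834 bases and the sources used here do not give the strand setting of the counting. Cast itself had a mean difference of -0.18 (limma adjusted p = 0.582).

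Nlrc5 (chromosome 8, 94434356 to 94527272), the transactivator of class I genes, had the largest difference of the 10 and the lowest level. Its values were 3.151, 3.354 and 3.288 log2 CPM in WT and 3.752, 3.550 and 3.615 in KO. Every KO library lay at least 0.196 above every WT library. The difference was 0.37 ± 0.21 (SD, n = 3 pairs; limma adjusted p = 0.364; 95% interval 0.08 to 0.67), with geometric means of 9.61 CPM in WT and 12.5 CPM in KO (29.7% apart), and did not pass the test over all genes. Among the tested genes 4.02% had a smaller unadjusted p, and 95.2% a smaller difference in size.

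**Figure D3:**
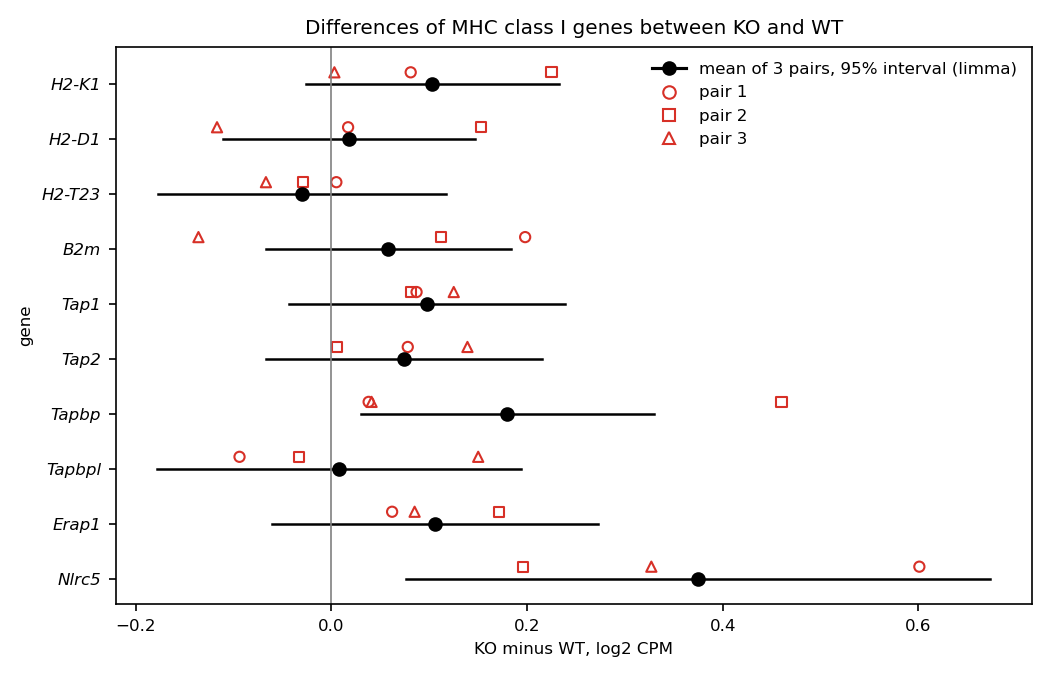
KO minus WT on the log2 CPM scale for each gene: black points are means of 3 pairs with limma's 95% intervals, and open red symbols are the pairs. The intervals of Tapbp (0.03 to 0.33) and Nlrc5 (0.08 to 0.67) lie above 0 before adjustment over all genes.

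Levels of different genes were compared as CPM per kilobase of exon (GENCODE M21 exon lengths, which may differ from those the authors counted over). B2m was highest, at 1061 ± 64.5 in WT and 1105 ± 65.5 in KO (SD, n = 3). H2-D1 followed at 247 ± 11.5 and 250 ± 11.7, and H2-K1 at 195 ± 7.56 and 209 ± 8.20. Then came Tapbp (86.4 ± 7.08 and 97.9 ± 8.44), Tap2 (74.2 ± 1.70 and 78.1 ± 1.81), H2-T23 (70.8 ± 0.884 and 69.4 ± 0.865) and Tap1 (49.3 ± 0.407 and 52.7 ± 0.437). Tapbpl lay at 19.5 ± 0.849 and 19.6 ± 0.868, Erap1 at 11.2 ± 0.223 and 12.05 ± 0.239, and Nlrc5 at 1.13 ± 0.0803 and 1.47 ± 0.106. Over the 6 libraries the ranges of neighbours in this order overlapped only for Tapbp and Tap2. The order depends on the length used, here all exon bases of a gene joined. That length was 2938 bases for H2-K1 and 2579 for H2-D1, whereas their main transcripts have 1619 and 2102 bases. Levels per transcript length were not computed, so the order of genes with near levels is not settled. The deposited values had lost a replicate effect, so these SDs and ranges do not measure the full spread between libraries.

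**Figure D4:**
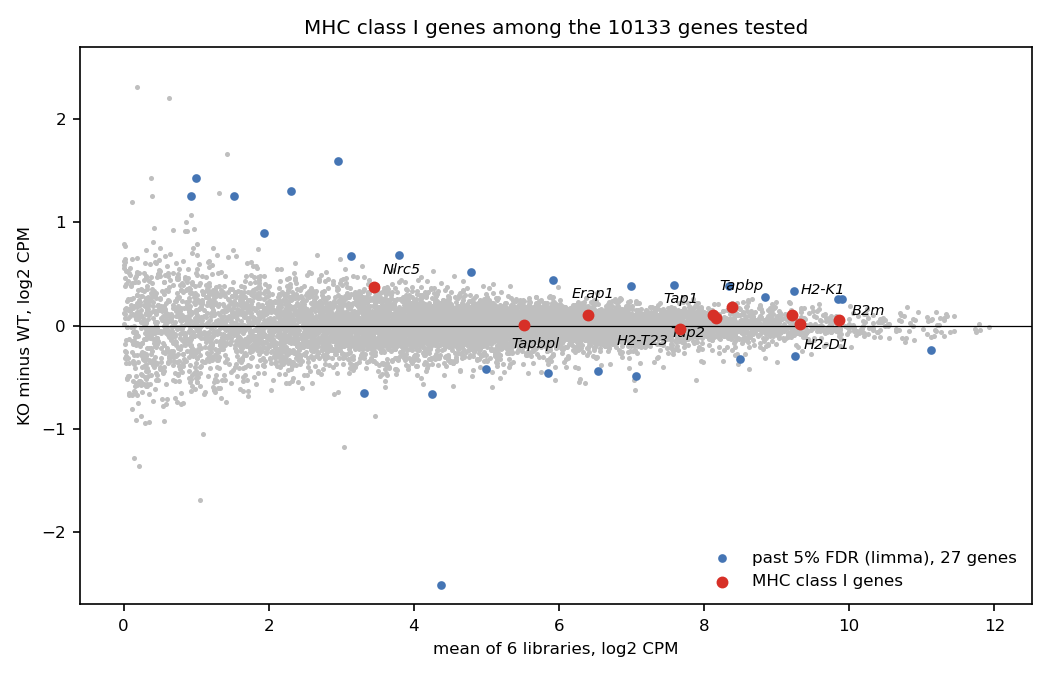
KO minus WT against the mean log2 CPM of the 6 libraries for the 10133 genes tested (grey), the 27 called genes (blue) and the 10 class I genes (red). The class I genes lie inside the grey cloud, and Nlrc5 lies near its upper edge at its level.

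Reads of related genes can be split or dropped by counting. All 75-base stretches of the main transcript were sought in transcripts of other genes, on either strand. Of these stretches 1.55% in H2-K1, 7.10% in H2-D1 and 13.1% in H2-T23 occurred there, against 0% in B2m and Nlrc5. The share was 17.5% in Tapbp, which overlaps the other-strand gene Gm19412 by 904 exon bases and the same-strand gene Zbtb22 by 149. It was 13.6% in Erap1, 8.97% in Tap2, 4.79% in Tap1 and 2.28% in Tapbpl. Erap1 shared with Cast, Tap2 with Gm15821 and Gm20496, and Tap1 with Psmb9. These are genes that overlap them on the other strand. Of 19 listed class I and class I-like chain genes 5 were tested, with 1 higher and 4 lower in KO, a median of -0.037, and 0 called. H2-Q4 differed by -0.51 ± 0.60, H2-T24 by -0.23 ± 0.25 and H2-T10 by 0.05 ± 0.33 (limma adjusted p = 0.673, 0.773 and 0.980). H2-Q6 and H2-Q7, named after their values were seen, were at the floor of -5.063 log2 CPM in every library; 21.1% and 21.7% of their stretches were shared with other genes.

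The rest of the pathway was read through lists of 63 further tested genes, of which 0 passed 5% FDR, 28 were higher and 35 lower in KO (44.4% higher), and 8 and 5 had an unadjusted p under 0.05. Their median difference was -0.011. Whether the 10 members differ from these genes was not tested.

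The loading and folding list (12 genes, which includes Tapbp, Tapbpl and Erap1) had 8 higher and 4 lower in KO and a median of 0.057, with pair medians of -0.046, 0.184 and 0.063. P4hb, a protein disulfide isomerase, differed by 0.14 ± 0.08 (limma adjusted p = 0.536) and Canx, the chaperone calnexin that holds free heavy chains, by 0.12 ± 0.15 (adjusted p = 0.650). In the immunoproteasome and proteasome activator list, 3 of 7 genes were higher and 4 lower, with a median of -0.0080. The catalytic subunits Psmb8, Psmb9 and Psmb10 differed by -0.01 ± 0.08, -0.01 ± 0.16 and 0.04 ± 0.10 (limma adjusted p = 0.989, 0.990 and 0.944). The activator subunits Psme2 and Psme3 differed by 0.11 ± 0.09 and 0.07 ± 0.11 (adjusted p = 0.701 and 0.840).

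Psmb9 and Tap1 lie on opposite strands with neighbouring starts. In RefSeq the starts are 226 bases apart, whereas in GENCODE M21 the Psmb9 model reaches past the start of Tap1 and their exons overlap by 212 bases. Tap1 was higher in KO in all pairs (0.087, 0.081 and 0.125), whereas Psmb9 differed by 0.163, -0.026 and -0.161. The signs of the neighbours were thus alike in pair 1 and unlike in pairs 2 and 3.

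Among 17 regulators of class I promoters 7 were higher and 10 lower in KO, with a median of -0.015. Irf1, an interferon-induced activator that binds interferon response elements, came nearest to the threshold of all listed genes. Its values were 4.819, 4.902 and 4.948 log2 CPM in WT and 5.365, 5.282 and 5.236 in KO, without overlap. The difference was 0.40 ± 0.13 (SD, n = 3 pairs; limma adjusted p = 0.0515), from 29.6 to 39.2 CPM, with paired differences of 0.546, 0.380 and 0.288. It passed in limma without a filter on low values (adjusted p = 0.0321), with a filter at 8 CPM (0.0436), with each library centred on its median (0.0481) and without replicate 3 (0.0390). Without the replicate block its limma adjusted p was 0.0352. That fit counts degrees of freedom already used by the removal of the replicate effect, so its p-values as a whole are too small. The unadjusted limma p of Irf1 itself was not lower there (1.74e-04, against 1.42e-04 with the block). Genes with an unadjusted p under 0.05 rose from 894 to 2361. Without replicate 1 and without replicate 2 the limma adjusted p of Irf1 was 0.305 and 0.296. Nor did it pass in limma on log2(CPM + 1) (adjusted p = 0.0553) or without robust moderation (0.170). After removal of a length and GC trend in each pair its limma adjusted p was 0.112. The highest over the alternatives was 0.702, without the variance trend. Of the RFX subunits, with which NLRC5 acts, Rfxap differed by -0.23 ± 0.17 (limma adjusted p = 0.505) and Rfx5 by -0.08 ± 0.14 (adjusted p = 0.885). Ciita, the class II counterpart of Nlrc5, differed by -0.17 ± 0.17 (adjusted p = 0.415).

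The interferon signalling list had 5 of 14 genes higher and 9 lower, with a median of -0.019. Jak2, a kinase of the interferon-gamma receptor, differed by -0.38 ± 0.48 (SD, n = 3 pairs; limma adjusted p = 0.333). Socs3, a feedback inhibitor, differed by 0.68 ± 1.02 (adjusted p = 0.478). In the list of cytosolic and ER peptide handling 7 of 11 genes were higher, with a median of 0.047. The ubiquitin ligase gene Syvn1 differed by -0.23 ± 0.25 (limma adjusted p = 0.284), the channel subunit gene Sec61b by 0.20 ± 0.04 (adjusted p = 0.320) and Vcp, the ATPase of retrotranslocation, by 0.14 ± 0.08 (adjusted p = 0.461). Of 5 symbols listed for receptors of immune cells, 3 were found (Lilrb4, Klrk1 and Cd160) and 0 reached the filter. Lilrb4a and Pirb were not found, and Lilrb4 and Lilrb4a are symbols of the same gene.

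**Figure D5:**
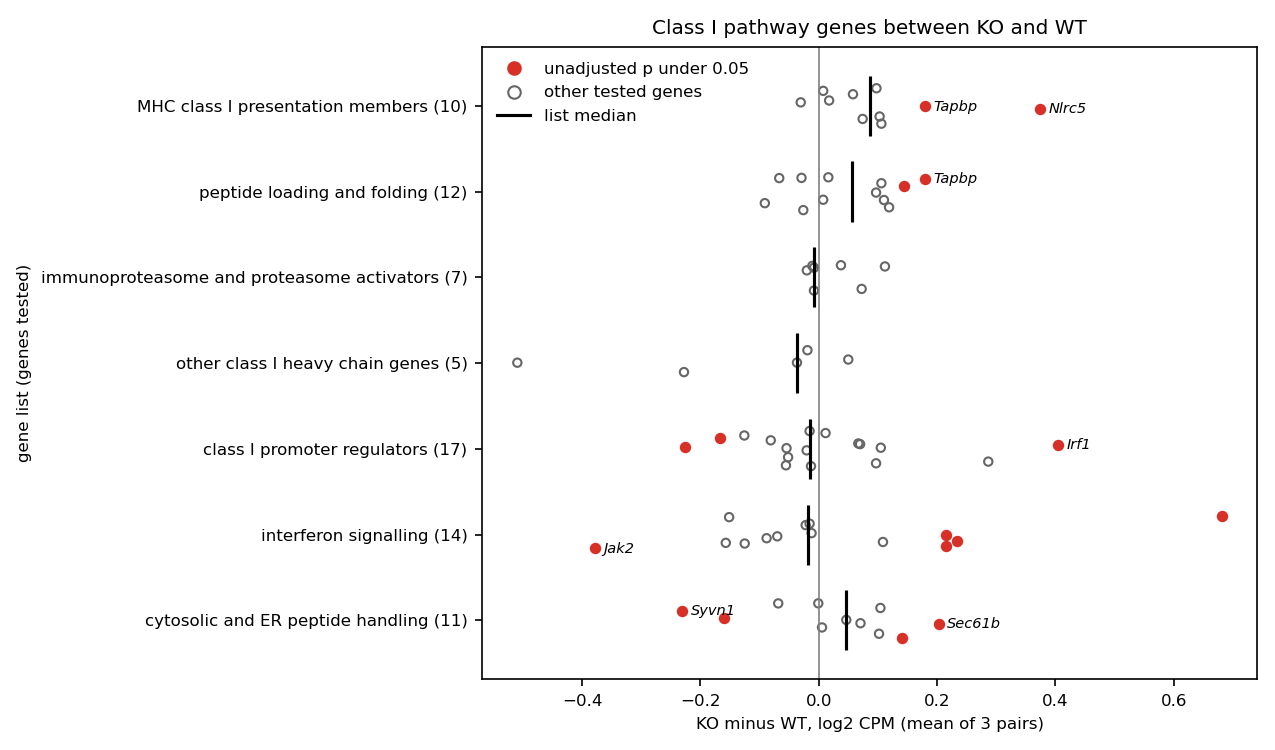
KO minus WT (log2 CPM, mean of 3 pairs) for each tested gene of the 10 members and 6 pathway lists; red points have an unadjusted p under 0.05, and black bars are list medians. Apart from the members (0.086), the list medians lie between -0.037 and 0.057.

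Genes whose 3 paired differences lay nearest to those of a member were sought among 7910 genes of at least 8 CPM by Euclidean distance on the log2 scale, as a description only. Nearest to Tap1 were Rpl9, Tbc1d17, Rpl5, Asb13 and Mtfr1, at distances of 0.0095 to 0.0214. Nearest to Nlrc5 were Tox2 (distance 0.0837; 0.39 ± 0.19, limma adjusted p = 0.0814), 2310009B15Rik, St14, Abi2 and Cyp4v3, the last at 0.191. With 3 numbers per gene many patterns are alike, and such likeness says nothing of shared function.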

How the data were processed

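Messenger RNA of 3 WT and 3 KO libraries was analysed. Tools named in the submitters' processing notes are STAR 2.6.1a, Subread 2.0.1 with featureCounts, Trim Galore 0.6.5, limma and FastQC 0.11.7, beside build mm10. Their settings, order and strand handling are not stated there. The deposited log2 values behave as log2 CPM, and for each gene the WT plus KO sum was equal over the replicate numbers to within 0.001, as removal of a replicate effect leaves it. The number of the libraries was therefore kept as a replicate block. What the number stands for is not stated, and since the removal fixes the correlation of same-numbered libraries, that correlation could not test the pairing. The KO minus WT contrast was fitted in limma 3.58.1 (R 4.3.3) with a variance trend and robust moderation, two-sided. Benjamini-Hochberg adjustment ran over the 10133 genes averaging 1 CPM or more whose values were not all equal. The model leaves 2 residual degrees of freedom per gene and adds a median of 81.2 prior ones. The fit was also run on simulated data in which the spread of a gene depended on its level alone. Such data cannot vouch for genes of unusual spread, and their result is not given here. Members, lists, naming rule and design were chosen with earlier results of these data known. All 10 members were named, and from each list the 3 tested genes with the smallest p. Named too were Psmb8, Psmb9, Psmb10, Irf1, Rfx5 and the 5 genes nearest in pattern to Tap1 and to Nlrc5. Promoters came from RefSeq (GRCm38.p6), positions and exon lengths from GENCODE M21 (GRCm38). The values of 1 listed gene that the rule names are not reported here. Protein identity, which had been planned, was not analysed here. Library depth is unknown.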

Additional observations from a re-analysis of the deposited data

How the results depend on the processing

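None of the 10 class I genes passed 5% FDR in limma under any of the 11 alternatives; 1 to 4 of them had an unadjusted p under 0.05, and 8 or 9 were higher in KO. Their median was 0.0408 to 0.1008 with 1 replicate left out, lowest without replicate 2, and 0.0843 to 0.0944 otherwise. Signs turned for 3 members when 1 replicate was left out: B2m ranged from -0.012 (without replicate 1) to 0.155, H2-D1 from -0.050 (without replicate 2) to 0.085 and Tapbpl from -0.0635 (without replicate 3) to 0.0585. The count of all called genes moved from 27 to 142 without the replicate block, 12 without robust moderation, 95 without a filter on low values, and 8 after removal of a length and GC trend in each pair, an alternative chosen after seeing the data. It was 0 without the variance trend (limma, with 640 genes at an unadjusted p under 0.05) and 136, 11 and 102 without replicate 1, 2 and 3. Of the called genes 63.0% were higher in KO, against 58.1% with each library centred on its median, 69.7% without the block, 58.3% without robust moderation, 75% after the length and GC removal, 44.2% without a filter, 46.4% at 8 CPM, and 19.9%, 36.4% and 27.5% without replicate 1, 2 and 3. The count of called pathway genes moved from 0 (14 at an unadjusted p under 0.05, Tapbp of the loading list included) to 3 without the replicate block (Irf1 and Sec61b among them), and to 1, each time Irf1, without a filter, at 8 CPM or with centring. It was 0 to 2 with 1 replicate left out (Jak2 without replicate 1, Irf1 and Syvn1 without replicate 3). The block changed the call of no class I gene, with Nlrc5 at an adjusted p of 0.0774 and Tap1 at 0.0946 without it. The p-values without the block are as a whole too small, since the deposited values had already lost a replicate effect whose degrees of freedom that fit still counts. Not every gene had a lower one: the unadjusted limma p of Tapbp was 0.0198 with the block and 0.0643 without it. The unknown depth leaves no counting limit to give for single libraries.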
